A study of Rattus norvegicus with 18 samples.

Results

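Early embryonic forebrain of the rat was compared with perinatal cortex by small RNA deep-sequencing, using 6 of the 9 tissue samples of the series. The early group held 1 sample of embryonic day 10 (E10) and 1 of embryonic day 13 (E13), which the labels call forebrain. The perinatal group held 4 samples that the labels call somatosensory cortex: 1 of embryonic day 17 (E17), 2 biological replicates of the day of birth (P0) and 1 of postnatal day 3 (P3). All animals were Sprague-Dawley rats with no treatment named, and the number of animals behind a sample is not given in the sources used here. According to the methods, whole cortex was taken at the early stages and the dorsolateral region later, with meninges and subcortical tissue removed; stage and tissue therefore cannot be told apart. Each tissue sample had been sequenced in 2 runs, which were summed. The miRNAs described are the 115 that the primer list and the list of nucleotide changes of the study name and for which 1 mature sequence was found, and 113 of them had enough reads to be tested among 553 sequences.

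MicroRNAs (miRNAs) are short RNAs cut from hairpin precursors. Loaded into Argonaute proteins, they pair with messenger RNAs, mainly through their seed, here bases 2 to 8 from the 5′ end, and lower the stability and translation of those messenger RNAs. A hairpin gives 2 arms, 5p and 3p, and miRNAs with the same seed share many targets. In the cortex, dividing neural progenitors give way to neurons and then to glia over the stages sampled here. The let-7 family, miR-124 and miR-128 are known for high levels in differentiated neural cells, and the families of miR-17-92 and of miR-130 and miR-301 for high levels in dividing cells.

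The 8 named miRNAs below were higher in early forebrain and are shown because they passed the test and both early samples lay above all 4 perinatal samples, in TPM, in each run alone. Capitals mark the seed, and the sequences are those of RefSeq (assembly GRCr8).
miR-199a-3p: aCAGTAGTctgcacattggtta
miR-199a-5p: cCCAGTGTtcagactacctgttc
miR-301b-3p: cAGTGCAAtggtattgtcaaagc
miR-10a-5p: tACCCTGTagatccgaatttgtg
miR-20b-5p: cAAAGTGCtcatagtgcaggtag
miR-152-3p: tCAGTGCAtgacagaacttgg
miR-219a-1-3p: aGAGTTGCgtctggacgtcccg
miR-337-3p: tTCAGCTCctatatgatgccttt

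The 7 named miRNAs of the next lines passed the test and lay below all 4 perinatal samples in the same way. Both let-7 members carry the same seed; the other seeds differ from each other. The sequence of miR-124 was read from the study's primers, since the RefSeq table used here did not give it.
let-7c-5p: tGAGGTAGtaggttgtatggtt
let-7b-5p: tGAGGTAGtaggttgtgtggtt
miR-128-3p: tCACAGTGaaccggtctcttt
miR-124: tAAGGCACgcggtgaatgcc
miR-195-5p: tAGCAGCAcagaaatattggc
miR-125b-5p: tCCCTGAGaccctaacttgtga
miR-344b-5p: aGTCAGGCtgctggttatattc

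Levels are given in TPM, the reads of a sequence in each 1000000 clean reads of a sample, over both runs. The 12 libraries held between 6916489 and 16420636 clean reads, and the summed samples between 19910829 (E13) and 27464584 (E10). Reads that could be counted for the tested sequences or candidates made up 80.7% at E10 and 70.9% at E13, against 88.2% to 89.6% in the perinatal samples (exact permutation test, two-sided, p = 0.133, the smallest that 2 against 4 samples can give). The 2 runs of a sample differed widely. Of 103 named miRNAs at 50 TPM or more, between 32 (P3) and 72 (P0 replicate 1) were more than 1 log2 unit apart between runs. The library nearest to run 1 of E13, by the median difference of the sequences, was run 1 of E17, and the nearest to run 2 of E13 was run 2 of E17, so that both runs of E13 lay nearest to a perinatal library and not to E10. The nearest to run 1 of P0 replicate 1 was also run 1 of E17. For this reason each difference was also required to hold in each run alone.

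The make-up of the reads differed between the groups before any single miRNA was considered. Sequences with the let-7 seed GAGGTAG took 28.6% of clean reads at E10 and 32.4% at E13, against 58.0% at E17, 46.2% and 59.7% in the P0 samples and 54.6% at P3. The groups did not overlap. Reads were spread over more sequences in early forebrain: 53 sequences at E10 and 42 at E13 held 90% of the counted reads, against 17 to 24 in perinatal cortex. The scaling factors of edgeR (TMM), which allow for such differences in make-up, were 2.29 at E10 and 1.51 at E13, against 0.528 to 0.938 in the perinatal samples.

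**Figure D1:**
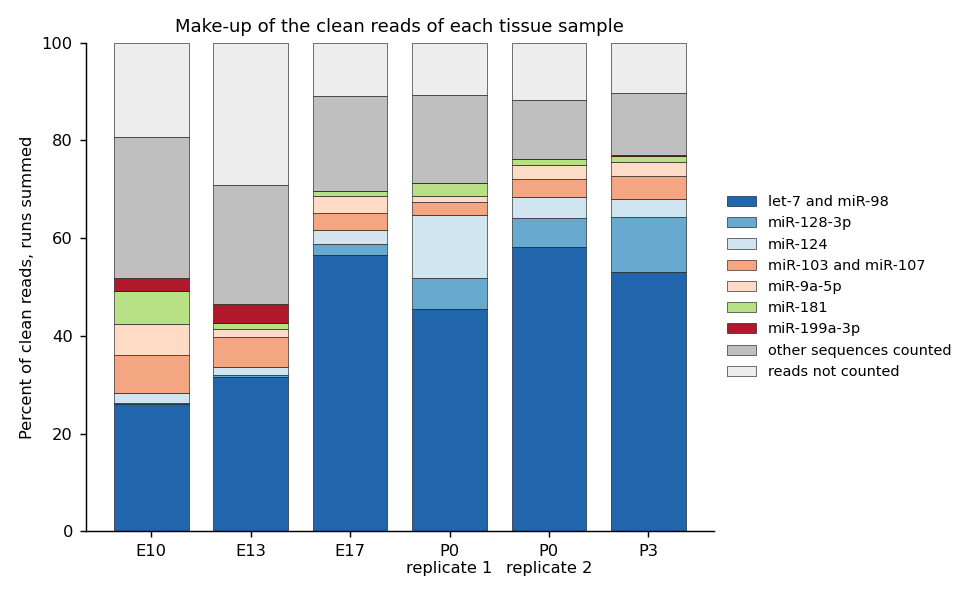
Stacked bars give the percent of the clean reads of each of the 6 tissue samples, both runs summed, that were counted for let-7 and miR-98, miR-128-3p, miR-124, miR-103 and miR-107, miR-9a-5p, miR-181 and miR-199a-3p, with other counted sequences in grey and uncounted reads in light grey. The let-7 and miR-98 bars reach 26.1% and 31.5% in the early samples and 45.5% to 58.2% in the perinatal samples, and miR-199a-3p is visible at E10 (2.74%) and E13 (3.84%).

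At an adjusted p under 0.05 (edgeR's quasi-likelihood test, Benjamini-Hochberg over 553 sequences), 25 named miRNAs differed, 8 higher and 17 lower in early forebrain. The 8 are 7.08% of the 113 tested, where 10.1% of all 553 sequences were called higher. Of those 553, 56 had 10 reads in fewer than 2 perinatal samples and so entered the test only with the help of an early sample; 19 of them were called higher, none was a named miRNA, and of the other sequences 7.44% were called higher and 6.84% lower. The 17 are 15% of the 113, where 6.15% of all sequences were called lower. With both early samples also required to lie on 1 side of all perinatal samples in each run alone, in TPM, the 8 higher miRNAs remained, and 7 of the lower ones did. These are 7.08% and 6.19% of those tested, and of all sequences 8.32% were kept as higher and 2.17% as lower. Whatever their test, 24 named miRNAs (21.2%) lay apart as higher and 7 (6.19%) as lower in each run, where 26.2% and 2.17% of all sequences did. On the TMM scale the same counts were 8 and 18, beside 7.78% and 8.86% of all sequences. With the test also required on that scale, 5 higher and 14 lower named miRNAs were kept, beside 5.79% and 5.06% of all sequences; miR-301b-3p, miR-152-3p and miR-337-3p then overlapped in run 1.

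The number of calls and their balance between higher and lower depended on how make-up was treated. Over all 553 sequences the median log2 difference was 0.12 after TMM scaling and 1.41 without composition factors, a shift of 1.28; over the named miRNAs the medians were -0.19 and 1.12. Without composition factors 34 named miRNAs passed the threshold, 28 higher and 6 lower, where 31.6% of all sequences were called higher and 1.81% lower. None of the 25 called miRNAs changed direction under that scaling, under DESeq2 or with the runs as a block. The number of calls rested on single samples as well: 2 named miRNAs were called without E10, 14 without E13, 13 without P0 replicate 2 and 16 without P3, and 2 of the 15 kept ones remained without E10. Without E10 only miR-199a-3p and miR-199a-5p of the kept miRNAs passed, and the other 13 had adjusted p-values of 0.0784 to 0.523 (edgeR) with their direction kept; miR-301b-3p, for which E10 was highest, went from 4.68 to 1.51 on the log2 scale, miR-152-3p from 2.58 to 1.33 and miR-20b-5p from 3.05 to 1.96. Without E13 the call was lost for miR-124, miR-152-3p and miR-337-3p (edgeR, adjusted p 0.0602 to 0.0988). Without P0 replicate 2 it was lost for miR-125b-5p, miR-152-3p, miR-20b-5p, miR-219a-1-3p and miR-337-3p (0.0635 to 0.110). Without P3 it was lost for let-7c-5p, miR-125b-5p, miR-20b-5p and miR-337-3p (0.0563 to 0.0829), and without P0 replicate 1 for miR-20b-5p (0.0578). With identical tags only, 8 named calls were lost: let-7d, let-7i, miR-125b-5p, miR-132-3p, miR-137-3p, miR-138-5p, miR-139-3p and miR-181a-1-3p (edgeR, adjusted p 0.0530 to 0.879). Others, such as miR-130a-3p and miR-130b-3p, gained a call there, and 27 named miRNAs passed in all. With tags of both runs only, miR-10a-5p, miR-125b-5p, miR-152-3p and miR-20b-5p of the kept miRNAs lost their call (edgeR, adjusted p 0.0577 to 0.121). From run 1 alone 3 named miRNAs were called, and 28 from run 2 alone. P-values here measure the spread between these samples, of which only P0 has a biological replicate.

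**Figure D2:**
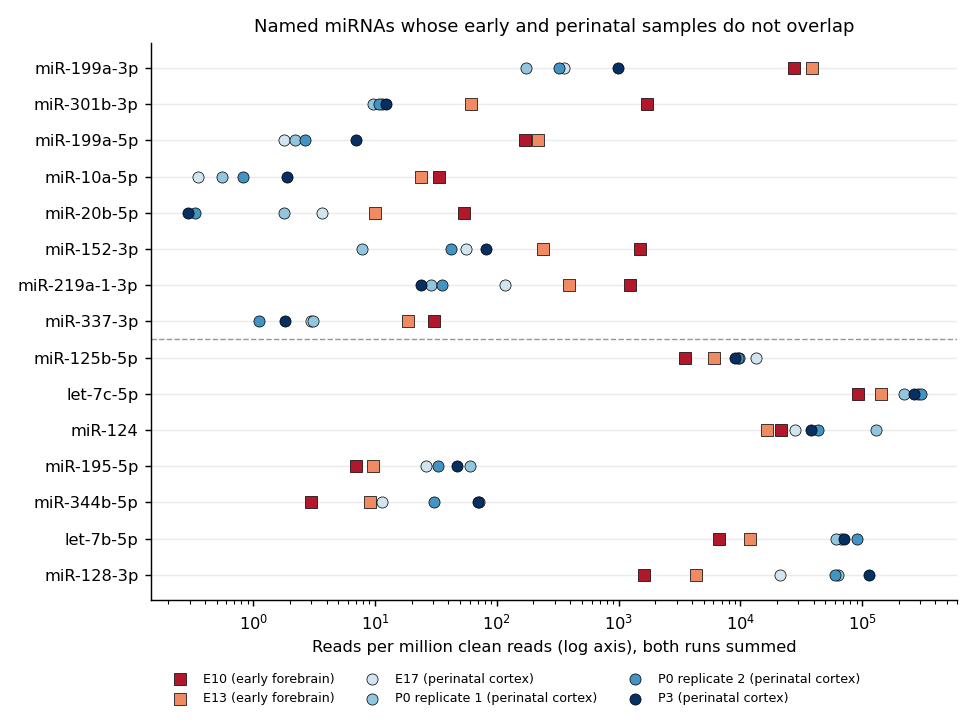
Each row is 1 of the 15 named miRNAs that passed the test and whose early and perinatal samples did not overlap in either run. Each point is the level of 1 tissue sample in TPM on a log axis, both runs summed. Squares are early forebrain and circles perinatal cortex; above the dashed line the squares lie to the right, with miR-199a-3p at 27365 and 38393 against at most 986, and under it to the left.

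Both arms of miR-199a rose. The hairpin lies on chromosome 13 (GRCr8, arms between chr13:77116255-77116277 for 5p and chr13:77116294-77116315 for 3p), inside the span of Dnm3, the gene of dynamin 3, and it is known from mesenchymal cells and smooth muscle. miR-199a-3p was at 27365 TPM at E10 and 38393 at E13, and at 355 at E17, 174 and 326 in the P0 samples and 986 at P3. The lowest early sample was 27.7 times the highest perinatal one, which was P3. The log2 difference was 4.82 ± 0.76 (SE; edgeR, adjusted p = 0.00172, n = 2 and 4), and it was called under all 17 alternatives tried, alone among the 15 kept named miRNAs; the unnamed miR-214-3p and miR-217-5p, described further on, were too. miR-199a-5p was far less abundant, at 170.2 and 219.4 TPM against 1.79, 2.20, 2.64 and 6.91, again with P3 the highest of the perinatal samples. Its log2 difference was 4.49 ± 0.73 (edgeR, adjusted p = 0.0018).

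miR-301b-3p, which shares its seed with the miR-130 family, differed in size between the early samples. It was at 1721 TPM at E10 and 61.5 at E13, and at 11.5, 9.55, 10.7 and 12.4 in the perinatal samples (log2 difference 4.68 ± 0.85, edgeR, adjusted p = 0.00305). E10 thus lay far above E13, and E13 was 4.97 times the highest perinatal sample. The reads also ended at different places: the mean 3′ end lay 1.62 and 1.61 nt past the mature end in early forebrain, 0.413 nt past it at E17 and 1.03 to 1.44 nt short of it at P0 and P3. Its levels were lower still in the late postnatal samples, 0.338 to 0.921 TPM from P7 to P28.

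Other members of the same seed group did not pass the test. They are shown because the seed is common to all of them while the calls differ.
miR-301b-3p: cAGTGCAAtggtattgtcaaagc
miR-130b-3p: cAGTGCAAtgatgaaagggcat
miR-130a-3p: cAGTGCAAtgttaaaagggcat

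miR-130b-3p, whose hairpin lies within 1 stretch with that of miR-301b (chr11:97384042-97384451), was at 2002 and 1389 TPM in early forebrain and at 578, 231, 81.7 and 31.2 in the perinatal samples. These did not overlap in either run, but the log2 difference of 1.68 ± 0.79 gave an adjusted p of 0.176 (edgeR). It passed when the run was fitted as a replicate block (2.30, limma-voom, adjusted p = 0.0476), in run 2 alone, with identical tags only, without composition factors and without E17 (edgeR, adjusted p 0.0192 to 0.0333). For miR-130a-3p, from another locus, E10 was at 2639 TPM and E13 at 939, against 160 to 852 (log2 difference 0.58 ± 0.66, edgeR, adjusted p = 0.586; -0.15 in run 1 alone). Of the 4 names on the list of miR-130 and miR-301 (miR-301a being counted by its 5p arm), miR-301b-3p alone passed the test, where 10.1% of all sequences rose, and 3 passed as higher without composition factors, where 31.6% did. The summed level of the list was 6929 and 2912 TPM against 265 to 1481, and the median log2 difference was 1.31, beside 0.12 over all sequences.

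miR-152-3p and miR-219a-1-3p were likewise highest at E10. miR-152-3p, of the miR-148/152 family that is known to act on the DNA methyltransferase Dnmt1, was at 1502 and 239 TPM against 55.8, 7.76, 42.0 and 82.2 (log2 difference 2.58 ± 0.83, edgeR, adjusted p = 0.0466). With the runs as a replicate block its adjusted p was 0.0659 (limma-voom), and it was the 1 kept named miRNA to lose its call there. miR-219a-1-3p is the less studied arm of a hairpin whose other arm is known from oligodendrocytes. It was at 1235 and 391 TPM and was at 117 at E17 and 24.0 to 35.5 at P0 and P3 (log2 difference 2.57 ± 0.69, edgeR, adjusted p = 0.0252). E17 was the highest perinatal sample for this miRNA, and the late postnatal samples were at 5.72 to 8.02.

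The other 3 higher miRNAs were of low level, and they are named although they stay under 100 TPM. miR-10a-5p, encoded in a Hox gene cluster, was at 33.5 and 23.7 TPM against 0.348, 0.551, 0.826 and 1.90 (log2 difference 3.51 ± 0.77, edgeR, adjusted p = 0.00909). miR-20b-5p belongs to the X-linked paralog of the miR-17-92 cluster (hairpins of that cluster at chrX:137342788-137343637). It was at 54.1 and 9.94 TPM against 3.66, 1.79, 0.330 and 0.290 (log2 difference 3.05 ± 0.87, edgeR, adjusted p = 0.0303). miR-337-3p, from the imprinted Dlk1-Dio3 region, was at 30.5 and 18.6 TPM against 1.11 to 3.08 (log2 difference 2.15 ± 0.61, edgeR, adjusted p = 0.0303). Most of its counted reads did not start at the mature 5′ end and so did not carry the seed marked above. Those that did were 42.6% at E10 and 20% at E13, against 14.9% to 20.5% in the perinatal samples. In all 3 the groups lay apart, with the lowest early sample 12.5, 2.72 and 6.04 times the highest perinatal one.

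The largest fall among the named miRNAs was that of miR-128-3p, a miRNA of neurons, 1 of whose 2 hairpins lies within the span of Arpp21 (mature sequence at chr8:120963807-120963827). It was at 1616 TPM at E10 and 4353 at E13, and at 21302 at E17, 62941 and 60050 in the P0 samples and 113072 at P3. The early samples lay below all perinatal ones, the lowest of which was 4.89 times E13. The log2 difference was -5.69 ± 1.04 (edgeR, adjusted p = 0.00305), and -4.43 without composition factors. From P7 to P28 the level was 134305 to 148662. The other arm of the second hairpin, miR-128-2-5p, which is not among the named miRNAs, was at 7.72 and 15.8 TPM against 81.4 to 230 (log2 difference -4.78, edgeR, adjusted p = 0.00331).

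miR-124, the neuronal miRNA best known for holding down non-neuronal messenger RNAs, was already abundant in early forebrain. It was at 21628 and 16418 TPM, against 27874 at E17, 130176 in P0 replicate 1, 43005 in P0 replicate 2 and 38259 at P3. P0 replicate 1 stood far above the other P0 sample, so the replicates of that stage differed more than E10 and E17 did. The log2 difference was -2.92 ± 0.74 (edgeR, adjusted p = 0.0209). Without composition factors it was -1.65 with an adjusted p of 0.05005, and the call was lost there, in run 1 alone and without E10 or E13.

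The let-7 family holds back growth and proliferation genes and is itself kept low in early cells by the protein LIN28. let-7b-5p was at 6734 and 11944 TPM in early forebrain against 66833, 61208, 90491 and 71429 (log2 difference -4.27 ± 0.80, edgeR, adjusted p = 0.00331). let-7c-5p, the most abundant sequence in all 6 samples, was at 92618 and 142268 TPM against 285157, 219631, 303151 and 266807 (log2 difference -2.51 ± 0.69, edgeR, adjusted p = 0.0274). For both, each early sample lay below each perinatal one. let-7a-5p, which has the same seed, was at 65338 and 64805 TPM against 67263 to 75973, the early samples again being lower (log2 difference -1.51 ± 0.61, edgeR, adjusted p = 0.107, and 0.0242 with all 9 tissue samples in the fit).

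Of the 8 names on the let-7/98 list, 5 fell and 3 did not pass, where 6.15% of all sequences fell. Those that fell were let-7b, let-7c, let-7d, let-7f and let-7i. In TPM the last 3 overlapped in run 1. On the TMM scale 6 of the 8 names lay apart as lower in each run, beside 8.86% of all sequences. The median log2 difference of the list was -2.02, and -0.62 without composition factors, where 2 of them (let-7b and let-7c) passed. The list was chosen with results of these samples known, so its direction is not independent evidence. let-7d-5p was at 6137 and 14209 TPM against 39299 at E17 and 14809 to 18852 in the other perinatal samples, so that E13 nearly reached P0. let-7f-5p was at 50774 and 31923 TPM against 53711 to 74637, and let-7i-5p at 9730 and 9090 against 12897 to 15604. Their log2 differences lay between -1.96 and -2.29 and none of the 3 passed without composition factors (-0.61 to -1.14). let-7i-5p also lost its call under the replicate block (limma-voom, adjusted p = 0.205), and with only tags identical to the mature sequence its difference was -0.19 (edgeR, adjusted p = 0.879).

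miR-125b-5p, a relative of the lin-4 timing RNA of worms, was at 3479 and 6084 TPM against 13373 at E17 and 8955 to 9709 at P0 and P3. The perinatal samples were all above the early ones, and E17 was the highest. The log2 difference was -2.36 ± 0.67 (edgeR, adjusted p = 0.0309), and -1.12 with an adjusted p of 0.0973 without composition factors.

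A further 2 lower miRNAs were rare. miR-195-5p carries the seed of miR-15 and miR-16, which is known to hold back cell cycle genes. It was at 6.95 and 9.64 TPM against 26.4, 60.7, 32.6 and 47.3 (log2 difference -3.59 ± 0.77, edgeR, adjusted p = 0.00776). With identical tags only the difference was -7.85, so its size depended on how tags were counted. miR-344b-5p, a brain miRNA of rodents that the study's primers name, was at 2.99 and 9.04 TPM against 11.5, 71.2, 30.3 and 70.3 (log2 difference -4.10 ± 1.01, edgeR, adjusted p = 0.0171). For the latter E13 lay just under E17.

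**Figure D3:**
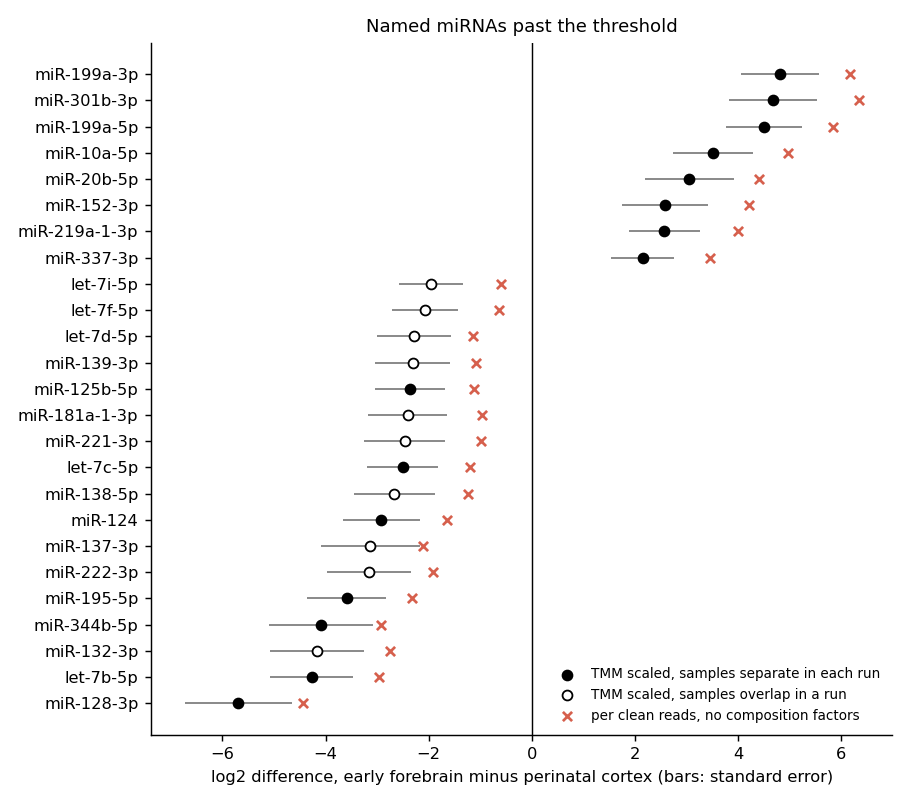
Points give the log2 difference, early forebrain minus perinatal cortex, of the 25 named miRNAs past the threshold, with bars of 1 standard error, after TMM scaling; filled points are the 15 whose samples lay apart in each run, open points the other 10. Crosses give the same difference without composition factors: all are shifted to the right, by amounts that leave miR-128-3p at -4.43 and let-7i-5p at -0.61, and none crosses 0.

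The 10 called miRNAs that overlapped in a run were all lower in early forebrain; they were picked for naming after their values had been seen, so that every call is accounted for. Beside let-7d, let-7f and let-7i they are miR-132-3p, miR-137-3p, miR-138-5p, miR-139-3p, miR-181a-1-3p, miR-221-3p and miR-222-3p. Of the 10, only miR-132-3p and miR-222-3p kept their call whichever perinatal sample was left out. miR-138-5p and miR-221-3p lost it without P0 replicate 1, P0 replicate 2 or P3 (edgeR, adjusted p 0.0518 to 0.105). miR-132-3p, which neuronal activity induces, was at 3.71 and 2.01 TPM against 5.40, 29.02, 14.4 and 28.7, with E17 nearest to the early samples (log2 difference -4.16 ± 0.91, edgeR, adjusted p = 0.00909). It went on to 780 TPM at P28.

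miR-137-3p had 1 sample far above the rest: it was at 38.2 and 88.8 TPM, at 761 in P0 replicate 1, and at 92.2 to 145.5 in the other perinatal samples (log2 difference -3.13 ± 0.96, edgeR, adjusted p = 0.0428). The call was lost without P0 replicate 1 (-2.12, edgeR, adjusted p = 0.0769), without E10 (-2.40, 0.366) and without E13 (-4.29, 0.0917). miR-221-3p and miR-222-3p come from neighbouring hairpins (chrX:6022642-6023268), share the seed GCTACAT and are known to act on the cell cycle inhibitor p27. miR-222-3p was at 232.4 and 414 TPM against 448, 1963, 980 and 1523, while for miR-221-3p E10 (948) lay above E17 (479). Their log2 differences were -3.15 ± 0.82 and -2.47 ± 0.78 (edgeR, adjusted p = 0.0219 and 0.0444). Under the replicate block miR-221-3p did not pass (limma-voom, adjusted p = 0.179), nor did miR-139-3p (0.0739). For miR-138-5p, a synaptic miRNA, E10 (173 TPM) also lay above E17 (101), and the other 3 perinatal samples were at 219.1 to 441.

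On the list of neuronal maturation, 8 of 14 names fell and 6 did not pass, where 6.15% of all sequences fell. They were miR-124, miR-128-3p, miR-132-3p, miR-137-3p, miR-138-5p, miR-212-5p, miR-221-3p and miR-222-3p. The summed level was 25863 TPM at E10 and 22544 at E13, against 51060 at E17, 199445 and 106092 in the P0 samples and 156569 at P3. miR-124 and miR-128-3p made up most of this sum in every sample, and the groups did not overlap in either run. Of single names, 2 of the 14 lay apart as lower in each run in TPM and 8 on the TMM scale. Over all sequences these shares were 2.17% and 8.86%. The median log2 difference was -2.57, or -1.11 without composition factors, where 2 of the 14 passed. This list too was drawn up with results of these samples known.

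The families known from dividing cells were counted in the same way. Of 11 names on the list of miR-17-92 and its paralogs, 1 rose, miR-20b (counted by its 3p arm, which had more reads), and the others did not pass, where 10.1% of all sequences rose. Without composition factors 6 of the 11 passed as higher, beside 31.6% of all sequences. The summed level was nevertheless 20308 TPM at E10 and 10539 at E13 against 6513, 3852, 2623 and 1834, and the samples did not overlap. The most abundant, miR-92a-3p, was at 6740 and 5496 TPM against 582.3 to 2596, with a log2 difference of 0.98 ± 0.63 (edgeR, adjusted p = 0.323), which was 2.29 with an adjusted p of 0.0152 without composition factors. miR-25-3p, from an intron of Mcm7, was at 5773 TPM at E10, but E13 (1307) lay below E17 (1401). The median log2 difference of the list was 0.71 after TMM scaling.

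None of the 4 names of the miR-181 list and the 2 of miR-103 and miR-107 passed the test; without composition factors 2 of the 4 passed as higher, miR-181b-5p (2.57, edgeR, adjusted p = 0.0113) and miR-181d-5p (2.11, 0.0216). miR-181a-5p was at 27594 TPM at E10 and 6699 at E13, and at 5809, 18956, 6978 and 9240 in the perinatal samples, which enclose E13 (log2 difference -0.70, but 0.74 without composition factors). miR-181d-5p was at 16947 and 2732 TPM against 1833 to 3115. miR-103-3p was at 53939 and 37067 TPM against 15691 to 29540, with a log2 difference of -0.40 that became 1.03 without composition factors, and miR-107-3p turned from -0.63 to 0.74 in the same way. On the list named after miR-15 and miR-16, 2 of 6 fell, where 6.15% of all sequences did. They were miR-195-5p and miR-497-5p, whose hairpins are neighbours (chr10:55450172-55450569), so that they are not separate observations. miR-16-5p itself did not pass (1544 and 1501 TPM against 346 to 2759), nor did miR-322-3p, the arm by which miR-322 was counted (2351 and 4420 against 1095 to 3844). Of 38 names from the Dlk1-Dio3 region 2 rose, miR-431 and miR-493-5p, where 10.1% of all sequences rose, and the median log2 difference was 0.14, beside 0.12 over all sequences. Without composition factors 11 of the 38 passed as higher, beside 31.6%. The list counts miR-337 by its 5p arm (log2 difference 0.56, edgeR, adjusted p = 0.555), not by the 3p arm that passed. Its most abundant members, miR-127-3p (7931 and 5004 TPM against 1768 to 4465) and miR-382-3p (3073 and 6556 against 1346 to 3209), did not pass.

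Hairpins within 10 kb of each other were also counted as a cluster, and the clusters of the miRNAs above are given. Over all sequences 10.1% rose and 6.15% fell. All 3 tested sequences of the miR-199a and miR-214 hairpins (chr13:77116255-77121733) rose, and all 4 of miR-132 and miR-212 (chr10:60521771-60522112) fell. Of miR-195 and miR-497 both tested sequences fell. For miR-221 and miR-222, 3 of 4 fell, and for let-7c and let-7b on chromosome 7 (chr7:118683636-118684119), 3 of 4 fell as well. In the 6 hairpins of the miR-17-92 cluster itself (chr15:98587861-98588622), 1 of 12 sequences rose, and in its paralog on chromosome X with miR-20b, 3 of 8. In the stretch of miR-301b and miR-130b 2 of 4 rose. Of the other let-7 clusters, that of let-7a, let-7f and let-7d (chr17:16320145-16322348) had 3 of 6 fall, that of let-7f and miR-98 1 of 4, and that of let-7c and miR-99a 1 of 2. Of miR-181a and miR-181b (chr13:52037081-52037323) 1 of 4 fell, and of miR-344b 1 of 3. In the Dlk1-Dio3 region 3 of 17 rose in the stretch that holds miR-337 and 1 of 63 in the other. Arms of 1 hairpin and neighbours come from shared transcripts and are not separate observations. Some identical mature sequences also stand in more than 1 cluster. Among them, let-7c is in that on chromosome 7 and that with miR-99a, and let-7f in that with let-7d and that with miR-98. The miR-17-92 cluster and its paralog share sequences too. Reads of such a sequence cannot be assigned to a locus, so the same result is counted in each of its clusters.

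Markers of other cell types were measured beside these differences; their counts of calls stand beside the 10.1% of all sequences that rose. The 5 markers of mesenchyme and smooth muscle, miR-199a-3p, miR-199a-5p, miR-214-3p, miR-143-3p and miR-145-5p, summed to 28886 TPM at E10 and 39632 at E13, against 480 to 1281 in the perinatal samples, P3 being the highest. The first 3 rose, while miR-143-3p (1092 and 808 TPM against 161 to 299.5) and miR-145-5p (148 and 11.8 against 2.57 to 33.3) did not pass the test. Most of the early sum was miR-199a-3p. It took 2.74% of clean reads at E10 and 3.84% at E13, where the 5 together took 2.89% and 3.96%. Of 5 markers that are linked to Hox clusters and posterior tissue, 3 had enough reads to be tested, and miR-196a and miR-196c did not. Their summed level was 44.6 and 52.7 TPM in early forebrain and 0.610 to 2.32 in perinatal cortex, and miR-10a-5p and miR-10b-5p rose. miR-196b-5p, which could be tested only through its early reads, so that its call is not counted, had 96 reads at E10 and 29 at E13 and none in the 4 perinatal samples, at least 76.9-fold higher against a floor of 3 reads over that group. Their part in the differences of miR-199a and miR-10a was not tested; these miRNAs are themselves on the lists.

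No sequence of the epithelial marker miR-429, or of miR-150 among those of white blood cells, was in the RefSeq table used here. Of the other 6 epithelial markers, of which miR-200a and miR-200b were counted by their 5p arms, 4 had enough reads. The summed level of the 6 was 134.03 and 110 TPM against 21.1 to 37.3. miR-200c-3p rose and miR-203a-3p did not pass; miR-205 (540 and 90 reads against 1 to 3) and miR-200b-5p (14 and 474 against 0 to 8) entered the test only through their early reads, so that their calls are not counted. miR-223-3p (189 and 63 reads against 3 to 13) likewise needed an early sample to be tested, among the markers of white blood cells, whose sum was at 79.5 and 20.9 TPM against 7.75 to 11.8, and so did miR-133a-3p among those of muscle, which had 46 reads at E10 and 11 at E13 against 1, 3, 0 and 0. The summed muscle level, nearly all of it from miR-206-3p and miR-1-3p, was at 86.8 and 471 TPM against 14.3 to 142.7, so that the groups overlapped. The red blood cell markers miR-451-5p and miR-144-3p summed to 1256 TPM at E10 and 90.9 at E13 against 43.0 to 70.9, apart in each run, and neither passed the test, while both passed as higher without composition factors. Endothelium (184 and 91.7 TPM against 48.1 to 94.3), oligodendrocyte lineage (99.8 and 230 against 22.5 to 108) and liver (47.9 and 40.9 against 22.3 to 72.0) had no call. The oligodendrocyte list holds miR-219a-2-3p and miR-338-3p. miR-219a-5p, which is on no list and is named after its values were seen, was kept as higher, at 1145 and 79.9 TPM against 21.9 to 48.8 (log2 difference 2.68 ± 0.72, edgeR, adjusted p = 0.0260). The labelled neural tissue was present in every sample: 5 neural markers took 9.51% of clean reads at E10 and 4.95% at E13, against 10.7% to 21.9%, and miR-124, miR-125b and miR-128 of them fell, where 6.15% of all sequences did. In such bulk samples fewer cells of a type and less RNA per cell cannot be told apart.

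**Figure D4:**
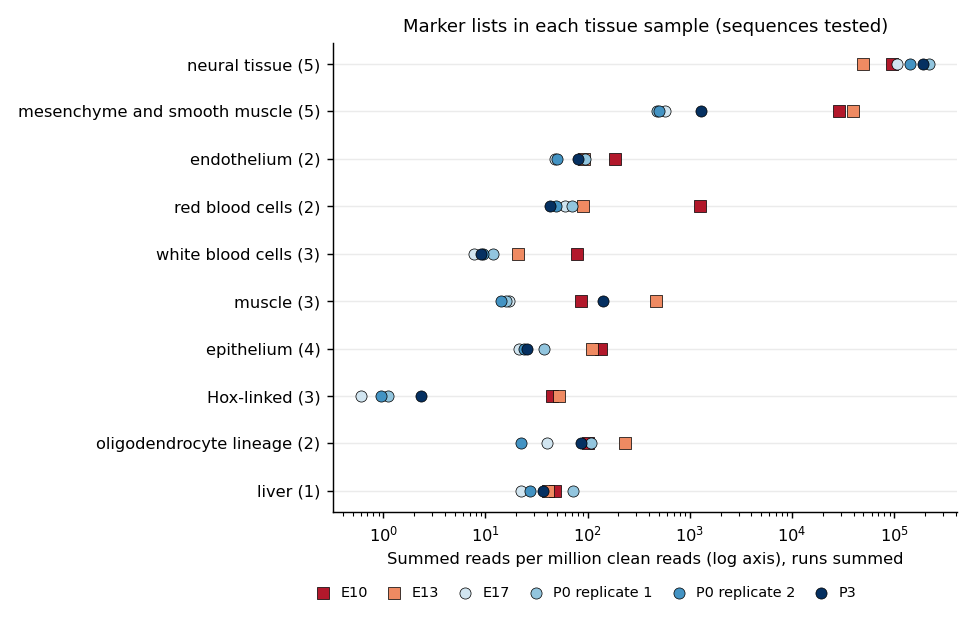
Each row is a list of cell type markers, with the number of sequences tested in brackets, and each point is the summed level of 1 tissue sample in TPM on a log axis; squares are early forebrain and circles perinatal cortex. The mesenchyme row shows the squares at 28886 and 39632 and the circles at 1281 or below, while for endothelium, oligodendrocyte lineage, liver and muscle the squares and circles overlap.

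Outside the named miRNAs, 440 sequences were tested, and 48 were called higher and 17 lower, where 10.1% and 6.15% of all sequences were. Of these, 19 of the higher and 4 of the lower could be tested only with a sample of the group where they were higher. The largest kept rises at 100 TPM or more were those of miR-214-3p, which lies beside miR-199a (110 and 200 TPM against 0.138 to 0.952), miR-449a-5p, known from ciliated epithelium (2477 at E10 and 37.97 at E13 against 2.39 to 16.5), miR-217-5p (95.0 and 164 against 0.248 to 3.09) and miR-483-5p, from the Igf2 gene (105 and 182 against 1.06 to 6.25). Their log2 differences were 6.90, 5.80, 5.68 and 4.26 (edgeR, adjusted p at most 0.00305). That of miR-449a-5p rested on E10: without it the difference was 1.44 (edgeR, adjusted p = 0.403), while the other 3 still passed there. Falls that met the same rule were those of miR-128-2-5p, given above, and of miR-221-5p, at 26.9 and 23.7 TPM against 37.7 to 220.9 (log2 difference -3.47, edgeR, adjusted p = 0.0272).

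**Figure D5:**
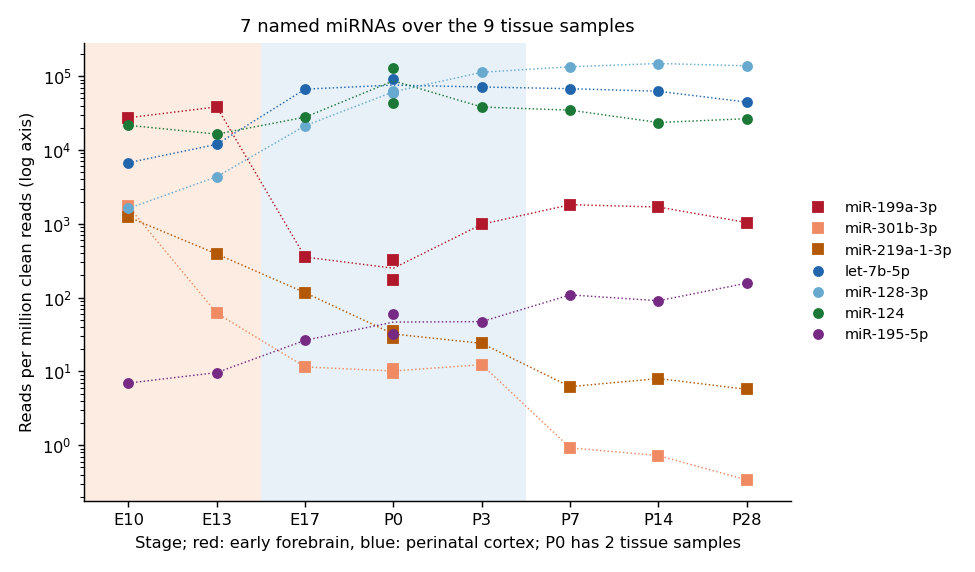
Points give the level of 7 named miRNAs in each of the 9 tissue samples of the series, in TPM on a log axis, by stage; dotted lines join the stages through the mean of the 2 P0 samples, and shading marks early forebrain (red) and perinatal cortex (blue). miR-199a-3p is at 38393 at E13, 355 at E17 and 1040 to 1816 from P7 on; miR-301b-3p and miR-219a-1-3p are lower after P3 than before it, and miR-195-5p is at 157 at P28.

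The 5p to 3p ratio was compared for 48 hairpins with at least 100 reads of each arm in every sample. The groups lay apart in each run for 2 of them, miR-409a and miR-872, both with relatively more 3p in early forebrain; these names were chosen after their values had been seen. For miR-409a the log2 ratio was -1.61 and -1.03 against 0.22, 0.52, -0.44 and -0.07, and for miR-872 it was 2.97 and 3.64 against 4.03 to 4.62. The median difference over the 48 was -0.12, and the count was 6 without E10, 12 without E13 and 5 without P0 replicate 1.

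Single tags were also compared, each unique read sequence being tested by itself. Of 31787 tags with at least 10 reads in at least 2 samples, 1668 (5.25%) were higher and 1055 (3.32%) lower in early forebrain (edgeR, adjusted p under 0.05), and 924 and 753 of these lay apart in each run. Most of these calls were of tags with 10 reads in fewer than 2 samples of the group where they were lower (1292 higher and 885 lower), which could be tested only through the group where they were higher, so the counts are partly set by the filter. Of the 23647 tags that also pass through perinatal samples alone 1.59% were higher, and of the 16193 that pass through early samples alone 1.05% were lower. No tag was called in run 1 alone or without P0 replicate 1, P0 replicate 2 or P3, where 2533, 7478, 6150 and 6904 had an unadjusted p under 0.05 (edgeR), and 182 were called without E10 and 997 without E13. Most called tags were counted for no tested sequence (1201 higher and 884 lower). The share of such tags among all 31787 was not determined, so these counts do not describe called tags in particular.

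The 3 most abundant of the higher ones were tags of 24, 23 and 22 nt that were found almost only at E13, with 487963, 175507 and 115025 reads there against 12, 32 and 29 at E10, and so were not kept. A 25 nt tag that shares its first 21 bases with miR-449c-5p had 52542 reads at E10 and 36 at E13, and 2 to 4 in the perinatal samples. It could be tested only through its early reads, so its call is not taken as support. Of the 5, 1 was kept: a 22 nt tag with 76267 reads at E10 and 11249 at E13 against 2786 to 5975.

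The most abundant lower tags that were not counted for a miRNA were all let-7c or let-7b with other 3′ ends. They are shown because they follow the mature forms: both share their first 21 bases with the mature miRNA.
let-7c variant: tgaggtagtaggttgtatggta
let-7b variant: tgaggtagtaggttgtgtggtaa

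The let-7c variant had 2057 and 2730 reads in early forebrain and 15069, 26311, 31880 and 40983 in perinatal cortex (log2 difference -3.71 ± 0.79, edgeR, adjusted p = 0.0319). The let-7b variant was at 13.9 and 38.5 TPM against 509 to 1498 (log2 difference -5.53 ± 0.98, edgeR, adjusted p = 0.0316). Both were kept, and in both the early samples lay well below E17, the lowest perinatal sample.

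Of the tag lengths, 26 to 30 nt made up 3.44% of clean reads at E10 and 2.06% at E13, against 0.720% to 1.59% in the perinatal samples (exact permutation test, two-sided, p = 0.133, the smallest possible here). Tags of 22 nt, the usual length of a miRNA, were 41.9% at E10 and 30.6% at E13 against 33.9% to 37.4%, so that the early samples enclosed the perinatal ones (p = 0.667 by the same exact test).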

How the data were processed

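Small RNA of 9 rat tissue samples was sequenced in 2 runs each, and 12 libraries of 6 samples were compared. The authors deposited raw counts of reads per unique clean tag and the length of each tag, after removing low quality reads, adaptors and contaminants; there was no normalization, mapping or annotation. Unnamed columns of other samples numbered 0.

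Tags were counted for a mature miRNA of RefSeq, or a candidate of the study, when identical over the common length with ends within 3 nt, down to 18 nt; a tag that fitted several was counted for each (1.91% of counted reads). Of the names on the study's lists, the longer held in part, 18 gave no single sequence. Sequences with at least 10 reads in at least 2 samples were tested with edgeR 4.0.16 (TMM, quasi-likelihood) in R 4.3.3, with limma 3.58.1 and DESeq2 1.42.0 for alternatives; other steps used Python 3.11.15, numpy 2.4.6, pandas 2.3.3 and matplotlib 3.10.9. Members and lists were chosen with earlier results of these data known. A list used 1 sequence a name, that with most reads. Named singly were kept miRNAs at 100 TPM or more in the higher group (at most 12 a direction), kept ones of the primer list, 2 to 4 of each list with most reads, at most 4 a direction outside the named miRNAs, and 5 tags a direction; exceptions are stated.

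The run numbers pair libraries by run: deviations of runs from their sample means correlated between samples at 0.122 to 0.774, and the consensus correlation within a sample was 0.342. No 2 libraries were closer than a median of 0.551 log2 units, so none was a copy. Other normalizations, filters, ways of counting, single runs, the run as a block, all 9 samples in the fit and leaving out each sample were tried. On simulated data with 553 features, the early against perinatal test called 98.2% of changes of 4 log2 units and 43.2% of those of 2. Of its calls 2.1% were wrong, and 2000 of 2000 simulated tags were counted. The simulation drew the samples of a group from 1 mean, with 1 spread for all features and as many rises as falls. The samples here differ in stage and make-up, so 2.1% is not the error rate of the calls above.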

Additional observations from a re-analysis of the deposited data

Results flagged for a closer look

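A sample that lay far from the other 3 perinatal samples was looked for in 70 values, and 9 were found (12.9%). The rule gives about 1 in 20 for independent values with a normal spread. These levels come from different stages, and some sums hold values tested singly, so the 2 shares cannot be compared. In each case the distant sample was the highest of its group. E17 stood apart for let-7d-5p (39299 TPM, others 14809 to 18852), miR-125b-5p (13373, others 8955 to 9709), miR-219a-1-3p (117, others 24.0 to 35.5) and miR-217-5p (3.09, others 0.248 to 0.619). P0 replicate 1 stood apart for the neuronal miR-124 (130176 TPM, others 27874 to 43005) and miR-137-3p (761, others 92.2 to 145.5). P3 stood apart for miR-199a-5p (6.91 TPM, others 1.79 to 2.64), for the summed markers of mesenchyme and smooth muscle (1281, others 480 to 575), on which miR-199a-5p stands, and for the summed muscle markers (142.7, others 14.3 to 16.9). With 2 samples, early forebrain could not be examined in this way.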

How the results depend on the processing

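Of 765 log2 differences over 45 miRNAs and 17 alternatives, 597 kept direction and side of the threshold, 10 gained a call, 20 turned and the rest lost the call; none of the 20 was a called miRNA. The 90 calls (16.3% of sequences tested, 56 higher and 34 lower) became 33.5% (175 and 10) without composition factors, 6.98% (24 and 12) with tags of both runs only, and 2% (6 and 4) from run 1 alone; DESeq2 called 57 lower, and identical tags only gave 17 lower. Leaving out 1 sample gave 2.71% to 22.2%, 14 to 75 higher and 0 to 47 lower; the 0 was without E10, where 84 had an unadjusted p under 0.05 (edgeR). Named calls (25) were 12 with tags of both runs, 3 from run 1 alone and 2 to 28 without a sample. The 58 kept sequences were 36 with identical tags only and 14 to 86 without a sample (38 without P0 replicate 2), and the 15 named ones 2 to 21. With the run as a replicate block (limma-voom) 93 were called, 25 of them named; the pairing lost miR-152-3p among the kept, and let-7i-5p, miR-139-3p and miR-221-3p among the other named calls. Tag calls (2723) were 1417 at 50 reads, 0 from run 1 alone and 0 to 2958 without a sample. The added alternative of leaving out each sample gave 2 to 12 hairpins with separate arm ratios, and, in percentage points, 20 to 21 nt -6.30 to 5.64, 22 nt -4.48 to 6.85, 23 to 25 nt -0.69 to 5.84 and 31 to 39 nt -0.0749 to 0.227; run 1 alone gave 2.24 for 20 to 21 nt and -2.11 for 23 to 25 nt. Without composition factors miR-181a-5p turned to 0.74, miR-322-3p 0.70, miR-16-5p 0.16, miR-103-3p 1.03, miR-107-3p 0.74, miR-127-3p 1.29 and miR-9a-5p 0.66. Others turned in run 1 (miR-130a-3p -0.15, miR-181d-5p -0.026, miR-103-3p 0.10), run 2 (miR-127-3p 0.25), with identical tags (miR-16-5p 0.42), the block (miR-382-3p -0.34), or without E10 (miR-181d-5p -0.67, miR-322-3p 0.26), E13 (miR-382-3p -1.03), E17 (miR-322-3p 0.01, miR-382-3p -0.02), P0 replicate 2 (miR-127-3p 0.01) or P3 (miR-127-3p 0.27). Without a sample the ranges were -0.67 to 1.28 for miR-181d-5p, -1.35 to 0.26 for miR-322-3p, -0.30 to 0.27 for miR-127-3p and -1.03 to 0.75 for miR-382-3p. The cause was not tested.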
